A study of Mus musculus with 5 samples.

Results

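The genes of neutrophil receptors and inflammatory mediators, 7 in all, were followed in whole blood of mice: the receptor genes Csf3r, Fpr1, Fpr2 and Il1r2 and the mediator genes Il1b, Hdc and Lrg1. A probe set, the group of short probes that reports 1 transcript on an Affymetrix array, was taken when the platform annotation gave it exactly 1 gene symbol and that symbol was one of the 7. This rule found 7 probe sets, of 45101 on the array, for 6 of the 7 genes. Hdc had 2 probe sets and Csf3r, Fpr2, Il1r2, Il1b and Lrg1 had 1 each. No probe set carried the single symbol Fpr1 in the annotation used here, so Fpr1 has no value below.

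The blood came from adult female first-generation mice with FVB/NJ as the shared parent strain. Their other parent was AKR/J (the 2 samples called AKRxFVB F1) or DBA/2J (the 3 samples called DBAxFVB F1). Each sample had 1 array, and no treatment other than anaesthesia is named. The series asked which genes differ in basal blood expression between these genotypes. Blood was drawn by cardiac puncture, so all blood cells and any cells met by the needle are in 1 RNA pool. Whether each sample was a separate animal is not stated in the labels, so p-values here measure the spread between arrays of a cross, part of which may be technical.

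Neutrophils are short-lived phagocytes released from bone marrow under granulocyte colony-stimulating factor (G-CSF), whose receptor is the product of Csf3r. They find bacteria and damaged tissue through G protein-coupled receptors for formylated peptides, which include the products of Fpr1 and Fpr2. Interleukin-1 beta, the product of Il1b, is a fever-inducing cytokine of activated myeloid cells, and the decoy receptor encoded by Il1r2 binds it without signalling. Hdc makes histamine from histidine, in mast cells and basophils and also in some neutrophils, and Lrg1 encodes a secreted leucine-rich glycoprotein made by neutrophils and by the liver in inflammation.

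Deposited values were read as log2 expression, with array medians of 2.49 to 2.54 when the control probe sets were left out. A gap of 1 is a 2-fold change, and a positive difference means that DBAxFVB F1 was higher. DBAxFVB F1 array 3 stood apart: its 18 hybridisation controls had a median of 7.99, against 10.01 to 10.12 on the others. Its 3-prime minus 5-prime difference for Gapdh, a sign of RNA quality, was 1.33 against 0.58 to 1.04. Member results that rest on this array are given with and without it, and those of other genes where stated. S100a8 and S100a9 encode the abundant calprotectin subunits of neutrophils, but the part of other blood cells in their values was not tested. S100a8 was read at 6.23 to 7.43 and S100a9 at 6.42 to 7.51 over the 5 arrays, far above the array medians. The list of neutrophil genes, S100a8 and S100a9 included, had 27 with a probe set. Each by its brightest, 14 lay above the array median on all 5 arrays, 10 on some and 3 on none. Lcn2, which encodes an iron-sequestering granule protein, read 2.16 to 2.69, and Cd177, a neutrophil surface marker, read 2.33 to 2.58.

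No member passed the threshold of a limma adjusted p below 0.05 over all 22519 probe sets tested, and neither did any other probe set (0 of 22519, or 0%). At an unadjusted p below 0.05 limma gave 2337. Csf3r and Il1b were higher on every DBAxFVB F1 array than on either AKRxFVB F1 array, by modest steps and whichever array was left out. One Hdc probe set and Lrg1 were also higher on all 3 DBAxFVB F1 arrays, but most of their difference came from array 3. Fpr2, Il1r2 and the other Hdc probe set overlapped between the crosses. In bulk blood, a change in the number of cells of a type and a change in RNA per cell cannot be told apart.

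**Figure D1:**
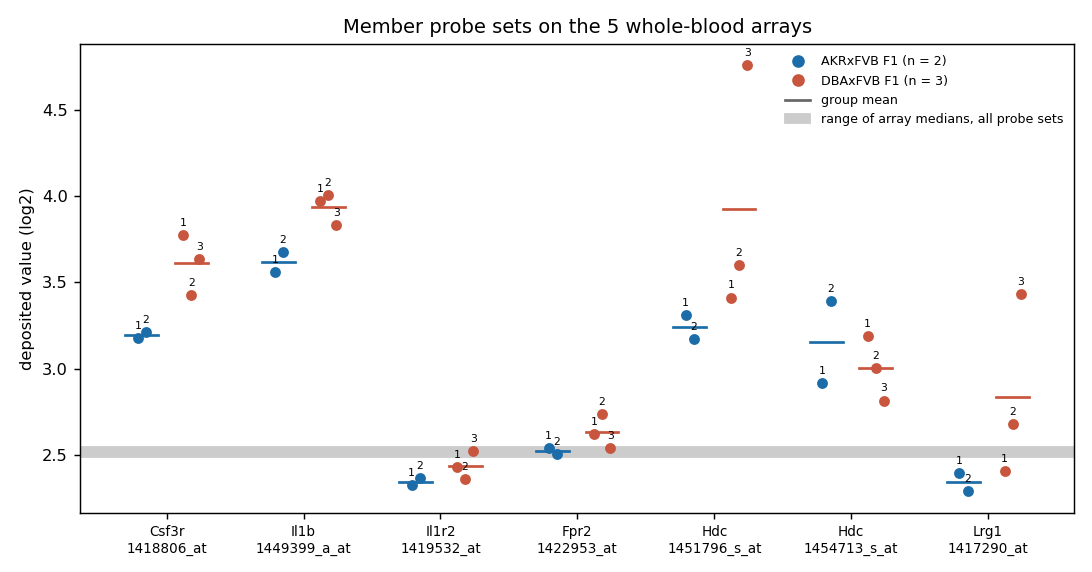
Deposited log2 value (vertical axis) of the 7 member probe sets on each array, with array numbers above the points, AKRxFVB F1 in blue (n = 2), DBAxFVB F1 in red (n = 3) and group means as bars; the grey band is the range of array medians over non-control probe sets. Csf3r and Il1b separate the crosses by gaps of 0.21 and 0.16, smaller than their ranges within DBAxFVB F1 of 0.35 and 0.17. Hdc 1451796_s_at reaches 4.76 and Lrg1 reaches 3.43 on DBAxFVB F1 array 3, above their other arrays.

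Csf3r, through which G-CSF drives neutrophil production and release, had the smallest p of the members. Its probe set 1418806_at read 3.18 and 3.21 in AKRxFVB F1, against 3.78, 3.43 and 3.64 in DBAxFVB F1. All 3 DBAxFVB F1 arrays lay above both AKRxFVB F1 arrays, and the gap between the nearest arrays of the crosses, 0.21, was smaller than the range within DBAxFVB F1, 0.35. The group means were 3.19 ± 0.03 (SD, n = 2) and 3.61 ± 0.18 (SD, n = 3). The difference was 0.42 ± 0.17 (limma SE), a 1.34-fold level with a 95% interval of 1.01 to 1.77. The limma p was 0.045 before adjustment and 0.466 after it, so Csf3r did not pass. The difference stayed between 0.34 and 0.51 with each array left out in turn, and was 0.41 without DBAxFVB F1 array 3.

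The stretch before the Csf3r start is shown because this gene had the smallest member p, and the Il1b stretch further on because its crosses separated as well. Both are the 250 bases upstream of the annotated start in RefSeq, assembly GRCm38.p6, a C57BL/6J sequence and thus of no parent strain of these crosses. Csf3r is on the plus strand, chr4:126024409-126024658, and capitals mark GAGGAA, the core bound by the myeloid factor PU.1.
Csf3r: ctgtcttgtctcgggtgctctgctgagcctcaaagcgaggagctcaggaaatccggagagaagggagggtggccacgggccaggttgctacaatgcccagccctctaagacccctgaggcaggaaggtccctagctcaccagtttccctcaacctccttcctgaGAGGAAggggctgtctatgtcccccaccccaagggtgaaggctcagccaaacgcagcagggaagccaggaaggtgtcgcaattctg
The GAGGAA match starts 86 bases before the start. GAGGAA on either strand was found in 23.3% of 32851 such stretches, so a match is common. Of the 6 member genes with values, Csf3r and Fpr2 had it, with the Fpr2 match on the minus strand 19 bases before the start. TTGCNNAA, a form of the site of C/EBP factors (9.56% of stretches), was found in none of these 6 stretches. Both strands were searched, and no matches overlapped. A match describes letters in this window and shows no binding.

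Fpr2 encodes a receptor for formylated peptides and for ligands such as annexin A1 and serum amyloid A. Its probe set 1422953_at read 2.54 and 2.51 in AKRxFVB F1, against 2.62, 2.74 and 2.54 in DBAxFVB F1. The values lay close to the array medians, and the lowest DBAxFVB F1 array fell just below the highest AKRxFVB F1 array. The difference was 0.11 ± 0.14 (limma SE, adjusted p = 0.799), with a 95% interval of -0.21 to 0.43, and it was 0.06 without DBAxFVB F1 array 2. Its paralogues in the same gene cluster, Fpr-rs4 and Fpr-rs3, differed by 0.07 ± 0.17 and 0.00078 ± 0.16 (limma SE). These genes are similar in sequence, and whether their probe sets read 1 transcript each was not tested.

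Il1r2, the interleukin-1 decoy receptor, read below the array median on all 5 arrays and was not in the test, because its mean of 2.40 fell below the filter level of 2.51. Probe set 1419532_at read 2.32 and 2.37 in AKRxFVB F1 and 2.43, 2.36 and 2.52 in DBAxFVB F1. The groups overlapped by less than 0.01, between DBAxFVB F1 array 2 and AKRxFVB F1 array 2. Fitted without the filter, the difference was 0.09 ± 0.13 (limma SE), with a 95% interval of -0.21 to 0.39. It was 0.05 without DBAxFVB F1 array 3.

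Il1b, whose product is cut to its active form by caspase-1 and released from neutrophils, monocytes and macrophages, had the smallest range within DBAxFVB F1 of the members that separated the crosses. Its probe set 1449399_a_at read 3.56 and 3.68 in AKRxFVB F1, against 3.97, 4.01 and 3.83 in DBAxFVB F1. The nearest arrays of the crosses were 0.16 apart, against a range of 0.12 within AKRxFVB F1 and 0.17 within DBAxFVB F1. The means were 3.62 ± 0.08 (SD, n = 2) and 3.94 ± 0.09 (SD, n = 3). The difference of 0.32 ± 0.18 (limma SE) did not pass (adjusted p = 0.577), and its 95% interval ran from -0.09 to 0.73. With each array left out in turn it lay between 0.26 and 0.38.

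The Il1b stretch lies on the minus strand, chr2:129371140-129371389 of GRCm38.p6, and is written 5′ to 3′ along the gene. Capitals mark TATAAA, the TATA box, which places the transcription start at many strongly induced genes.
Il1b: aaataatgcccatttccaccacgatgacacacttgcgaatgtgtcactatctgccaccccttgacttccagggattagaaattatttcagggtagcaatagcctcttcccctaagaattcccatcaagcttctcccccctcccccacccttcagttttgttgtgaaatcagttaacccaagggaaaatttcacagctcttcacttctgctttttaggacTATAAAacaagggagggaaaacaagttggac
The TATAAA match begins 31 bases before the start, and 12.4% of the 32851 stretches held TATAAA on either strand. Among the other members with values, Fpr2 had a match 130 bases before its start, and Csf3r, Il1r2, Hdc and Lrg1 had none in this window.

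Monocytes also make interleukin-1 beta, and 11 of their 14 listed markers had a probe set. Their summed level, as log2 of the summed linear values, was 10.85 and 10.51 in AKRxFVB F1 and 9.64, 9.89 and 10.58 in DBAxFVB F1. Bright genes set this sum, above all those of the lysozymes Lyz1 and Lyz2 and the protease gene Ctss. Among all tested probe sets with a mean of 6 to 15, only 15.6% had a difference above 0. Of 10 monocyte markers tested, 3 were higher and 7 lower in DBAxFVB F1, with a median difference of -0.37. Dimmer markers were divided. Ms4a6c read 4.17 and 3.70 against 3.60, 3.73 and 3.82 (difference -0.22 ± 0.21, limma SE). The chemokine receptor gene Ccr2 read highest on DBAxFVB F1 array 1 (4.89, against 4.30 to 4.60 on the others), where Il1b was at 3.97. On DBAxFVB F1 array 2, where Il1b was highest at 4.01, Ccr2 read 4.60, as on AKRxFVB F1 array 1. Cx3cr1, another chemokine receptor gene of monocytes, read 2.53 and 2.55 against 2.70, 2.68 and 2.65, higher on all 3 DBAxFVB F1 arrays. The part of monocyte transcripts in the Il1b values was not tested.

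Lrg1 encodes a glycoprotein held in neutrophil granules and secreted by hepatocytes in the acute phase. Probe set 1417290_at read 2.39 and 2.29 in AKRxFVB F1, against 2.40, 2.68 and 3.43 in DBAxFVB F1. DBAxFVB F1 array 1 exceeded AKRxFVB F1 array 1 by 0.01, and array 3 stood 0.75 or more above every other array. The means were 2.34 ± 0.07 (SD, n = 2), below the filter level, and 2.84 ± 0.53 (SD, n = 3), so Lrg1 entered the test through DBAxFVB F1. The difference was 0.50 ± 0.28 (limma SE, adjusted p = 0.583), and it was 0.20 without DBAxFVB F1 array 3, where the mean fell below the filter level.

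Liver markers were higher on that array as well. Of 6 listed, 5 had a probe set, with a summed log2 level of 6.18 to 6.19 in AKRxFVB F1 and of 6.39, 6.45 and 6.69 in DBAxFVB F1. Alb, the gene of serum albumin, read 4.55 on DBAxFVB F1 array 3 and 4.27 to 4.92 on the others, so it was not raised there. Ttr, the plasma thyroxine carrier transthyretin, read 5.49 on array 3 and 4.77 to 5.10 on the others. The part of these transcripts in the Lrg1 values was not tested.

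Hdc was read by 2 probe sets that did not move together. Probe set 1451796_s_at read 3.31 and 3.17 in AKRxFVB F1, against 3.41, 3.60 and 4.76 in DBAxFVB F1. It was higher on all DBAxFVB F1 arrays, narrowly on array 1 and by 1.16 or more on array 3 than on any other. Probe set 1454713_s_at read 2.91 and 3.39 in AKRxFVB F1 and 3.19, 3.005 and 2.81 in DBAxFVB F1, with its lowest value on array 3. The suffix _s_at marks probe sets whose probes can match more than 1 transcript.

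The first probe set differed by 0.68 ± 0.38 between the crosses (limma SE, adjusted p = 0.575), and by 0.27 without DBAxFVB F1 array 3. The second differed by -0.15 ± 0.20 (limma SE, adjusted p = 0.813), and its sign turned, to 0.089, without AKRxFVB F1 array 2. Within an array, the first minus the second was 0.40 and -0.22 in AKRxFVB F1 and 0.22, 0.60 and 1.95 in DBAxFVB F1. The 2 probe sets thus differed by nearly 2 log2 units on array 3 and by 0.60 or less, in either direction, elsewhere. Their differences between the crosses lay 0.83 apart, or 0.32 apart without that array.

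Mast cells and basophils are the classical histamine makers, and 10 of their 11 listed markers had a probe set. The summed log2 level of these was 6.67 to 7.13 in AKRxFVB F1 and 6.55 to 6.96 in DBAxFVB F1, with overlapping groups and the highest sum on AKRxFVB F1 array 1. The median deviation of these markers from their means over the 5 arrays was instead highest on DBAxFVB F1 array 3 (0.09, against 0.07 on AKRxFVB F1 array 1 and below 0 on the other arrays). Cma1, a mast cell protease gene and the brightest of these markers, read 5.48 and 4.51 against 4.07, 4.34 and 5.33 (difference -0.41 ± 0.44, limma SE). Tpsab1, a mast cell tryptase gene, read 3.77 and 4.04 against 4.01, 4.04 and 4.29 (0.21 ± 0.20, or 0.12 without array 3). Mcpt8, a basophil protease gene, read 2.67 and 2.58 against 2.67, 2.47 and 2.72 (-0.0055 ± 0.14), so it was only narrowly highest on array 3. By its brightest probe set, the transcription factor gene Gata2 read 4.08 and 3.89 against 3.59, 3.88 and 3.13 (-0.45 ± 0.25, or -0.25 without array 3). Another tested Gata2 probe set, a dimmer one, went the other way. It read 2.91 and 2.89 against 3.16, 2.99 and 3.18, highest on array 3. The mast cell carboxypeptidase gene Cpa3 read 4.60 and 3.45 against 3.05, 3.53 and 3.98 (-0.51 ± 0.38). Fcer1a, a chain of the high-affinity IgE receptor, read 1.93 to 2.46, below the array medians on all 5 arrays and lowest on array 3. The part of these cells in the Hdc values was not tested. The other listed genes of histamine handling gave little: of 9, 8 had a probe set and 3 were tested. The histamine receptor genes Hrh2 and Hrh3 differed by 0.27 ± 0.21 and -0.01 ± 0.14 (limma SE), and Aoc1, which degrades histamine, by -0.15 ± 0.19. Hnmt and Slc18a2, which inactivate histamine and load it into granules, read 1.61 to 2.00 and 1.68 to 2.32, below the array medians.

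**Figure D2:**
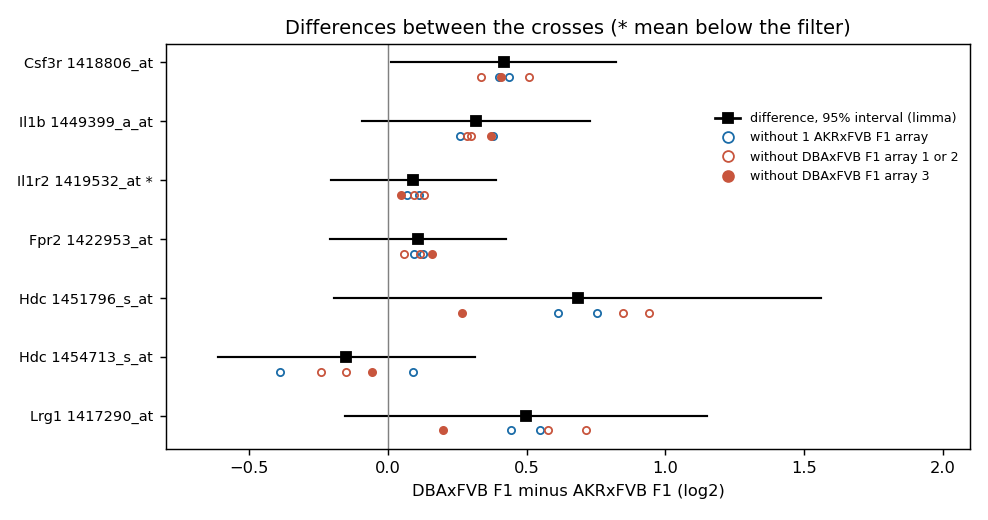
Difference between the crosses (DBAxFVB F1 minus AKRxFVB F1, log2, horizontal axis) for each member probe set, as a square with limma's 95% interval, and below it as circles the differences with 1 array left out. The Csf3r interval lies just above 0 (0.01 to 0.82) and all others cross 0, and leaving out DBAxFVB F1 array 3 (filled circles) moves Hdc 1451796_s_at to 0.27 and Lrg1 to 0.20.

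Over all 7 member probe sets, 6 differences were above 0, where 55.8% of all 45037 non-control probe sets were, and 4 had groups that did not overlap with DBAxFVB F1 higher, against 14.6%. Of the 6 that passed the filter, 1 (Csf3r, higher in DBAxFVB F1) had an unadjusted limma p below 0.05, against 10.4% of all probe sets tested in either direction and 3.59% in that one. Non-overlapping groups were seen in 4 of these 6, all with DBAxFVB F1 higher, where the share over all probe sets tested was 28.9% in either direction and 16.4% in that one. Lrg1, 1 of these 4, passed the filter only through DBAxFVB F1, and its nearest arrays of the crosses lay 0.01 apart. It is also among the genes of the median that follows. The median difference of the 5 tested member genes, each by its brightest probe set, was 0.42, against 0.05 over 12421 named genes. With Il1r2 included and no filter it was 0.37 against 0.05. The members were listed with earlier results of these arrays known, so these counts carry no test. Probe sets with a mean of 3 to 4, where Csf3r, Il1b and Hdc lay, had a median difference of 0.07, and 60.7% of them were above 0.

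**Figure D3:**
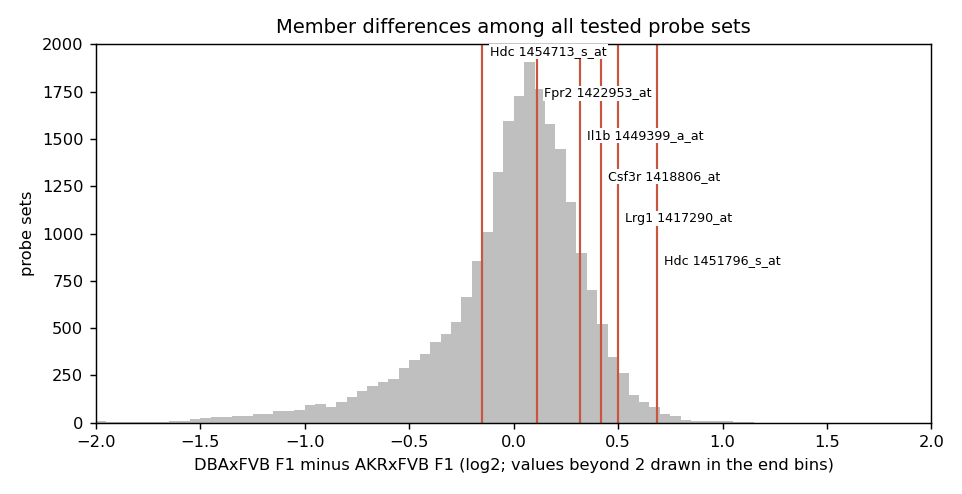
Number of probe sets (vertical axis) by difference between the crosses (log2, horizontal axis) for the 22519 probe sets tested, with the 6 tested member probe sets as red lines. Hdc 1451796_s_at lies at 0.68 and Lrg1 at 0.50 in the right tail, Csf3r (0.42) and Il1b (0.32) on the right shoulder, and Fpr2 (0.11) and Hdc 1454713_s_at (-0.15) in the bulk.

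Other neutrophil genes were divided between the directions. Of 30 listed, 27 had a probe set and 20 were tested, of which 13 were higher and 7 lower in DBAxFVB F1, with a median difference of 0.11. For comparison, differences above 0 made up 60.7% of all probe sets with a mean of 3 to 4 and 62.3% of those with a mean of 2.6 to 3, so a majority above 0 is common at these levels. None passed the adjusted threshold. An unadjusted limma p below 0.05 was reached by 2 of the 20, 1 in each direction, against 10.4% of all probe sets tested. Slfn4, an interferon-inducible schlafen gene of myeloid cells, was at 2.32 and 2.38 against 2.91, 2.64 and 2.63 (difference 0.38 ± 0.15, limma SE). Its AKRxFVB F1 mean of 2.35 lay below the filter level, so it entered the test through DBAxFVB F1. Mcl1, a survival factor of the BCL2 family that other leukocytes also express, was at 7.02 and 5.89 against 4.97, 4.60 and 5.57 (-1.41 ± 0.42, or -0.84 without AKRxFVB F1 array 1). Mmp8, the neutrophil collagenase, was at 2.66 and 2.65 against 2.38, 2.44 and 2.47 (-0.23 ± 0.13). Its DBAxFVB F1 mean of 2.43 lay below the filter level, so it entered the test through AKRxFVB F1.

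The calprotectin genes did not separate the crosses. S100a8 read 7.43 and 6.43 in AKRxFVB F1 against 6.35, 6.23 and 7.005 in DBAxFVB F1, and S100a9 read 7.51 and 6.90 against 6.59, 6.42 and 7.51. Both were lowest on DBAxFVB F1 arrays 1 and 2, where Il1b was highest. Their differences were -0.40 ± 0.41 and -0.36 ± 0.42 (limma SE), with overlapping groups, and were -0.64 and -0.70 without DBAxFVB F1 array 3. That of S100a8 turned to 0.10 without AKRxFVB F1 array 1. Differences below 0 were common at this level: probe sets with a mean of 6 to 15 had a median difference of -0.47, and 15.6% of them were above 0. The summed log2 level of the 27 genes was 8.92 to 9.46 in AKRxFVB F1 and 8.66 to 9.24 in DBAxFVB F1. The receptor gene Cxcr2, another surface receptor of mature neutrophils, read 2.43 and 2.67 against 2.62, 2.67 and 2.83 (difference 0.16 ± 0.15, or 0.092 without DBAxFVB F1 array 3).

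**Figure D4:**
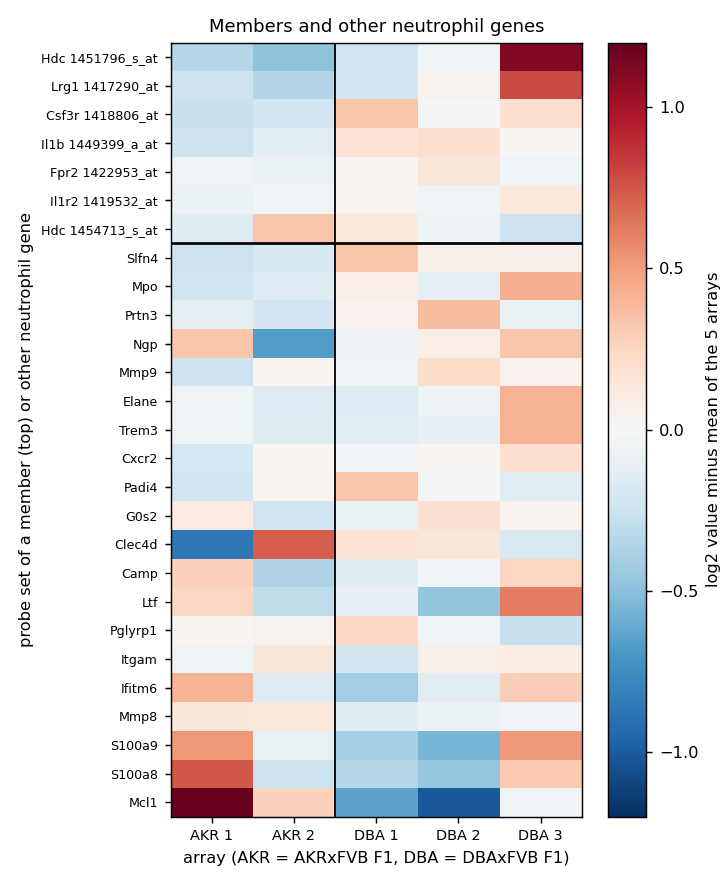
Deviation of each log2 value from the mean of the 5 arrays (colour, red above and blue below) for the 7 member probe sets (top block) and 20 tested other neutrophil genes (lower block), both sorted by difference between the crosses; columns are arrays. S100a8, S100a9 and Ltf are red on AKRxFVB F1 array 1 and DBAxFVB F1 array 3, while Csf3r and Il1b are blue on both AKRxFVB F1 arrays.

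In the interleukin-1 pathway, 11 of 14 tested genes other than the members were higher in DBAxFVB F1, each by its brightest tested probe set. Of these 11, 3 had groups that did not overlap. None of the 14 had an unadjusted limma p below 0.05, against 10.4% of all probe sets tested. These counts stand beside 60.7% above 0 among all probe sets with a mean of 3 to 4 and 16.4% of all tested probe sets with non-overlapping groups and DBAxFVB F1 higher. The list median was 0.09. Gsdmd, whose product forms the membrane pore through which interleukin-1 beta leaves the cell, read 3.24 and 3.26 against 3.58, 3.48 and 4.07 (difference 0.45 ± 0.22, limma SE). The kinase gene Irak2 of the receptor's signalling complex read 4.14 and 3.95 against 4.53, 4.39 and 4.38 (0.39 ± 0.20). Il1rl2, the receptor gene for interleukin-36, read 2.77 and 2.97 against 3.05, 3.16 and 3.87 (0.50 ± 0.26). Gsdmd and Il1rl2 were highest on DBAxFVB F1 array 3, as Hdc 1451796_s_at and Lrg1 were, and without it their differences were 0.27 and 0.24. Il1rn, which encodes the receptor antagonist, differed by 0.06 ± 0.21, and Il1a read 1.90 to 2.39, below the array medians.

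Genes of G-CSF receptor signalling were divided as well. Of 16 tested, 7 were higher and 9 lower, with a median of -0.07. Of these, 2 had an unadjusted limma p below 0.05, both lower in DBAxFVB F1. Over all probe sets tested, 10.4% had one in either direction and 3.59% with DBAxFVB F1 higher. Jak2, a kinase that the receptor activates, read 4.79 and 5.02 against 4.21, 4.21 and 3.81 (difference -0.83 ± 0.23, limma SE, adjusted p = 0.267). Jak1 differed by -0.91 ± 0.37 and the phosphatase gene Ptpn11 by -0.65 ± 0.30, or by -0.35 without DBAxFVB F1 array 3. Differences below 0 were common at the level of Jak1: probe sets with a mean of 6 to 15 had a median difference of -0.47, and 15.6% were above 0. Socs3, a feedback inhibitor of the receptor, read 3.62 and 3.56 against 3.55, 3.62 and 4.46, so it stood out on array 3 alone. Its difference of 0.29 was -0.0057 without that array. Stat3, the main transcription factor of the pathway, differed by 0.08 ± 0.22.

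Granulocyte transcription factors were split, with 5 of 10 tested genes higher and a median of -0.08. Cbfb, the partner subunit of RUNX factors, read 6.49 and 6.34 against 4.84, 4.74 and 4.72 (difference -1.65 ± 0.24, limma SE, adjusted p = 0.131, as small as any probe set reached). Runx1 itself read 4.46 and 3.93 against 4.77, 5.01 and 5.61 (0.93 ± 0.32), the opposite direction. Cebpa, needed for granulocyte formation, differed by -0.33 ± 0.15, and Spi1, which encodes PU.1, by 0.24 ± 0.22. None passed.

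Chemoattractant receptors and their partners had 7 of 13 tested genes higher and a median of 0.00078. Cxcr4, which holds neutrophils and lymphocytes in bone marrow, read 3.90 and 4.51 against 3.12, 3.03 and 3.70 (difference -0.92 ± 0.27, limma SE). It was the only 1 of the 13 with an unadjusted limma p below 0.05, against 10.4% of all probe sets tested. Cmklr1 and the complement receptor gene C3ar1 differed by 0.26 ± 0.14 and 0.29 ± 0.16, with all 3 DBAxFVB F1 arrays above both others. The AKRxFVB F1 mean of Cmklr1, 2.43, lay below the filter level, so this gene entered the test through DBAxFVB F1. Among transforming growth factor beta genes, through which the Lrg1 product acts on endothelium, 6 of 10 were higher and the median was 0.04. Tgfbr2 and Smad4 had the smallest p, at -1.28 ± 0.32 and -0.99 ± 0.27, and Smad2 differed by -0.43 ± 0.23, or by -0.062 without AKRxFVB F1 array 1. Eng, the co-receptor that the Lrg1 product binds, differed by 0.06 ± 0.27. None of these genes passed the adjusted threshold.

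Genes next to the members along the chromosomes are given for position. Of the 6 nearest named genes with a probe set around Csf3r on chromosome 4, 3 were tested, and these had differences of -0.03 for Grik3, -0.02 for Mrps15 and -0.20 for Lsm10, with overlapping groups. Around Il1b on chromosome 2, 3 of 4 tested neighbours were higher, and Sirpa, an inhibitory receptor of myeloid cells, read 3.62 and 3.50 against 3.90, 3.84 and 4.42 (difference 0.49 ± 0.23, limma SE, or 0.31 without DBAxFVB F1 array 3). Sirpa was named because it was the only one of these 4 whose groups did not overlap. Over all probe sets tested, 16.4% had such groups with DBAxFVB F1 higher. Around Il1r2 on chromosome 1, 2 of 3 tested neighbours were higher. Map4k4 differed by -0.28 and Il1rl2 by 0.50, the latter with groups that did not overlap. The receptor gene Il1r1 read 2.40 and 2.59 against 2.48, 2.42 and 3.32. Its difference of 0.24 was -0.043 without DBAxFVB F1 array 3. Around Fpr2, Hdc and Lrg1, 4 of 4, 3 of 4 and 5 of 6 tested neighbours were higher, and 0, 1 and 1 had groups that did not overlap. Above 0 were 60.7% of all probe sets with a mean of 3 to 4 and 62.3% of those with a mean of 2.6 to 3. No tested neighbour of any member had an unadjusted limma p below 0.05, against 10.4% of all probe sets tested.

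The genes with the array pattern nearest to the members were found by the root mean square distance over 5 arrays from the members' median profile. That profile, as deviation from the mean of the arrays, was -0.25 and -0.23 in AKRxFVB F1 and 0.03, 0.04 and 0.19 in DBAxFVB F1. Among 8405 named genes with at least its range of 0.44, the 6 nearest were Eri3, Ptcra, Fam160a1, Klhl22, Ica1 and Armc6. Their distances were 0.05 to 0.06 log2 units, and Eri3 was nearest.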

How the data were processed

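Total RNA was amplified with the array maker's 2-cycle kit, biotin-labelled and hybridised to 1 Affymetrix array per sample, per the labels' protocols. The values deposited by the authors were already normalized and were taken as log2 from their range (1.29 to 14.8), since the base is not given in the sources used here. The submitters' processing notes name MAS5 and RMA without saying which made the values. How strongly low signals were compressed is thus unknown, and it matters here because the members read near the low end.

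Probe sets were named through the platform annotation, in which 34958 carried 1 symbol, 932 carried more than 1 and 9211 were unnamed. The 64 array controls were left out. Probe sets with a mean at or above the median of the rest (2.51) went into limma (version 3.58.1, R 4.3.3) with a single term for the cross, a variance trend and a two-sided moderated test on 3 residual degrees of freedom. P-values were Benjamini-Hochberg adjusted over all 22519. An exact permutation test of 2 against 3 arrays cannot give a p below 0.1, so none was run. The limma step was tested on simulated data.

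The members, lists and naming rules were chosen with earlier results of these data known. Named were all member probe sets, up to 3 genes with the smallest p per list and the 6 genes nearest to the member profile. Genes named beyond these, such as S100a8, Cxcr2, Il1rn, Stat3, Socs3, Spi1, Eng, Sirpa, Lcn2, Cd177, Ccr2, Cx3cr1 and Mcpt8, were chosen for their role or after their values were seen. Lists for other blood cells, of which B cell, T cell, platelet, erythroid, eosinophil and endothelial markers are given under the other observations, were treated alike. Alternatives were 3 other normalizations, other filters, variance settings, weighted arrays, a block for the replicate number and leaving out each array. Python 3.11.15 with pandas 2.3.3 and matplotlib 3.10.9 handled annotation and plots.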

Additional observations from a re-analysis of the deposited data

How the results depend on the processing

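No probe set, and no member, passed the adjusted threshold under any of the 14 alternative fits. The direction was kept under every alternative that tested them for Csf3r (14 fits, 0.34 to 0.51), Il1b (14 fits, 0.26 to 0.38), Hdc 1451796_s_at (14 fits, 0.27 to 0.94), Fpr2 (13 fits, 0.05 to 0.16) and Lrg1 (12 fits, 0.20 to 0.71). Hdc 1454713_s_at kept it in 12 of 13 fits, and ranged from -0.39 to 0.089 with 1 array left out. Csf3r had an unadjusted limma p below 0.05 in 5 of its 14 alternatives, and its adjusted p ranged from 0.4 to 0.92. The count of members at an unadjusted p below 0.05, which was 1, became 2 (Hdc 1451796_s_at and Lrg1) without DBAxFVB F1 array 1. It became 0 after any of the 3 other normalizations, without a filter, with the replicate block, and without either AKRxFVB F1 array or DBAxFVB F1 array 3. Over all probe sets that count was 2337, and it was 3880 with no filter, 1299 with the filter at the 75th percentile and 1243 without AKRxFVB F1 array 1. With the replicate number as a block, the median of the 5 member genes was 0.27, against 0.42. The labels do not say that equal numbers share an animal or day, so the numbers were treated as names only. Deviations of same-numbered arrays correlated at -0.26 and 0.17. The deviations of the 2 AKRxFVB F1 arrays mirror each other, so these correlations cannot decide whether the numbers mark pairs. The differences of Il1r2 and of Lrg1 with arrays left out and no filter, added after the data were seen, kept their direction. The values of other named genes with 1 array left out were also added after the data were seen. The number of arrays limits every value, and the members' signal lies near the lower end of the scale, where no limit of detection is stated.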

Other observations

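The summed log2 levels of other cell markers show how the 5 blood samples differed beside the members. Platelet markers (7 of 7 with a probe set) summed to 11.62 and 12.53 in AKRxFVB F1 and to 11.97, 12.20 and 10.41 in DBAxFVB F1, so they were lowest on DBAxFVB F1 array 3, where Hdc 1451796_s_at and Lrg1 were highest. B cell markers (5 of 6) summed to 8.91 and 7.71 against 6.62, 6.58 and 7.46, lower on every DBAxFVB F1 array. Of these 5 genes, Ms4a1, the brightest, was the only 1 whose groups did not overlap. Cd79b read 4.85 on AKRxFVB F1 array 2 and 4.89 on DBAxFVB F1 array 3, and Pax5 was higher in DBAxFVB F1, by 0.09. T cell markers (6 of 7) summed to 7.48 and 7.73 against 7.53, 7.26 and 7.39. The sum of the erythroid markers (5 of 6) lay between 13.58 and 13.78 on all arrays, but Alas2 (13.45 to 13.59) largely set it. Slc4a1 read 9.13 on DBAxFVB F1 array 3 against 10.29 to 10.71 on the others. Epb42 read 3.71 on that array against 3.96 to 5.61, and Ank1 was also lowest there. Alas2 and Klf1 were instead lowest on AKRxFVB F1 array 1. Eosinophil markers (5 of 6) summed to 4.49 and 4.49 against 4.67, 4.54 and 4.56, and endothelial markers (5 of 5) to 5.67 and 6.76 against 6.65, 6.19 and 5.49. The part of these cells in the members' values was not tested.

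The monocyte surface receptor gene Cd14 was another that read highest on DBAxFVB F1 array 3, at 5.14 against 3.27 to 4.17 on the others, while Ctss, a lysosomal protease gene of monocytes, read highest on AKRxFVB F1 array 1 (8.56 against 5.96 to 7.45).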
